A study of Mus musculus with 10 samples.

Results

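The BMP and Nodal signalling genes described here are 10 named genes of the 33006 in the deposited count table: the ligands Bmp4 and Nodal, the Nodal co-receptor Tdgf1, the Nodal antagonists Lefty1 and Lefty2, the inhibitory Smads Smad6 and Smad7, and the Smad-driven targets Id1, Id2 and Id3. They were chosen by name and role, with the RNA values of the auxin comparison already known, so their levels and fold changes are given as a description without p-values. The RNA came from E14 mouse embryonic stem cells in which NPM1, a histone chaperone of the nucleolus, bears a degron tag (NPM1AID). All cells were grown in LIF with PD0325901, which inhibits MEK1/2 (1 µM), and CHIR99021, which inhibits GSK3 (3 µM), were synchronized to G1 and were released for 12 h, either with auxin, which triggers destruction of the tagged protein (2 libraries), or without it (2 libraries). The file headers name clone 38, so the cells are 1 clone, and the labels do not tell separate cultures from repeat libraries. The p-values of other genes below therefore rest on library-to-library spread alone, and that spread may be technical. H3K27me3, the mark set by Polycomb repressive complex 2, was available as peak lists from 1 ChIP-seq sample at 6 h without auxin and 1 CUT&RUN control sample at 12 h. The other samples of these assays, the CUT&RUN samples labelled auxin and auxin PRC2i among them, were not analysed here.

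Nodal and the BMPs are secreted ligands of the TGF-beta superfamily. Each binds a pair of type I and type II receptor kinases, which phosphorylate receptor Smads (Smad2 and Smad3 below Nodal, Smad1, Smad5 and Smad9 below BMPs) that enter the nucleus with Smad4. In embryonic stem cells BMP4 is known for sustaining self-renewal together with LIF through the Id genes, and Nodal for feeding back on its own antagonists, the Lefty proteins. Both pathways pattern the early embryo and turn on their own inhibitors, among them Smad6 and Smad7.

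The 4 libraries held 13353446 and 16046290 counts with auxin and 14789851 and 15183126 counts without. Levels below are CPM (counts scaled by the TMM-adjusted library size). Transcripts of the targeted gene averaged 805 ± 53.8 CPM with auxin and 1005 ± 75.6 CPM without (SD, n = 2 each); auxin acts on the protein, so Npm1 RNA does not check the labels. The 6 markers of pluripotent cells summed to 4371 and 4357 CPM with auxin and 4836 and 4757 CPM without, with 1 of the 6 called higher and 4 lower, whereas 6 fibroblast markers summed to 7.08 and 7.60 CPM with auxin and 6.25 and 5.49 CPM without. In bulk RNA, fewer cells of a type and less RNA per cell cannot be told apart.

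Promoter letters from RefSeq (GRCm38.p6, the same assembly as mm10) were on hand for 6 of the 10 members. They are shown for the member with the largest fold change, Bmp4, and for the 4 members whose window held a motif linked to Smads. Each line runs from 250 bases before the annotated start to 4 bases after it, 5′ to 3′ on the gene's strand. Capitals mark the palindromic Smad element GTCTAGAC, the GC-rich element GGCGCC bound by BMP Smads, and the Smad box CAGAC or its reverse GTCTG. They also mark AATNNACA, a loose pattern like the site of the Nodal cofactor FoxH1, with any base allowed at N.
Bmp4, chr14:46390666-46390919, minus strand: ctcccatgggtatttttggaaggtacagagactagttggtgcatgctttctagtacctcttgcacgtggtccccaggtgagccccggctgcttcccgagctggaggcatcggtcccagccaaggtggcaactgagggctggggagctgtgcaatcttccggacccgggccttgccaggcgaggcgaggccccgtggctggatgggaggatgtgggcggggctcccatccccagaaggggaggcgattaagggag
Smad6, chr9:64022056-64022309, minus strand: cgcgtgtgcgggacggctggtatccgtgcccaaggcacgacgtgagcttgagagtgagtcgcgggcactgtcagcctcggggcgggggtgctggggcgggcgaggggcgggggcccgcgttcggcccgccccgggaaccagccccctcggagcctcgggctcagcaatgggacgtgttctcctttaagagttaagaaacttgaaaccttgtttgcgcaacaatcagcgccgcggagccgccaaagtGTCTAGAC
Id2, chr12:25096089-25096342, minus strand: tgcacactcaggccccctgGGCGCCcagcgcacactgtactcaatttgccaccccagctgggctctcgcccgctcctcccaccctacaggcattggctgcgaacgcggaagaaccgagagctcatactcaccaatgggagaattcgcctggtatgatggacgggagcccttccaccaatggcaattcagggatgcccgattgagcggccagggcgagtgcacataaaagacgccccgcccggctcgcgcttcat
Id3, chr4:136143572-136143825, plus strand: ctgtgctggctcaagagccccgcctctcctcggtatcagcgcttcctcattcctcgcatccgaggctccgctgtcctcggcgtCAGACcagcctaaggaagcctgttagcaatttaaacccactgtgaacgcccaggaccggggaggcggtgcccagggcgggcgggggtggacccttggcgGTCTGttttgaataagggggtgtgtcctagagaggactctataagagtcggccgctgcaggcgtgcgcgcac
Tdgf1, chr9:110946155-110946408, minus strand: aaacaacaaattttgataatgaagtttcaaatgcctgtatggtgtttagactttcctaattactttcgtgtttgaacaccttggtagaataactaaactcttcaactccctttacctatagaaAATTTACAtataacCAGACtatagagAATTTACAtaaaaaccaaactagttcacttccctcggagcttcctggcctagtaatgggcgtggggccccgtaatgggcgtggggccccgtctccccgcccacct

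Motifs were searched on both strands in the table's whole window, which runs to 50 bases after the start. The palindrome spanned the start of Smad6, from base -4 to base 4, and was present in 0.213% of the 32851 windows in the table. Id2 held GGCGCC at base -231, as did 11.9% of all windows somewhere in their length. Id3 held CAGAC at base -167 and GTCTG at base -68, letters that 49.6% of all windows contain. Tdgf1 held AATTTACA at base -127 and again at base -101, with CAGAC between them at base -113. The loose pattern AATNNACA was found in 12.2% of all windows. Any middle letters pass it, TT included, so a match need not be a FoxH1 site. Neither the Bmp4 nor the Nodal window held any of these letters. No motif overlapped another in these windows. The Id3 start in RefSeq lies 325 bases downstream of the 5′ end in the count table; the other 5 starts coincide. These matches are descriptions of letters and not of bound sites.

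Bmp4 showed the largest difference among the members. The ligand gene (chr14:46383520-46390669, minus strand, mm10) stood at 8.55 and 8.67 CPM in the auxin libraries (116 and 146 counts), against 36.9 and 37.2 CPM in the libraries without auxin (525 and 548 counts). The groups lay far apart, with replicates nearly equal inside each. Its level was 4.29-fold lower with auxin (log2 fold change -2.10, SE 0.10), and only 21 of the 13522 genes tested had a more negative value.

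The genes of the Nodal arm went in different directions. Nodal, the ligand itself (chr10:61417972-61425338), measured 255 and 282 CPM with auxin and 186 and 194 CPM without, 1.41-fold higher with auxin (log2 fold change 0.50, SE 0.06). Both auxin libraries were above both others. Tdgf1, which encodes the membrane-anchored co-receptor Cripto that Nodal needs to engage its receptors (chr9:110939610-110946158), measured 340 and 288 CPM with auxin and 432 and 395 CPM without. Its groups did not overlap either, but on the lower side (log2 fold change -0.40, SE 0.07). RefSeq lists pseudogenes of Tdgf1, and fragments shared with such copies were not resolved by the authors' counting.

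The secreted antagonists of Nodal differed little between groups. Lefty1 measured 42.3 and 37.8 CPM with auxin and 43.5 and 42.4 CPM without (log2 fold change -0.11, SE 0.08). The groups were separated by less than the gap between the auxin replicates. Lefty2 measured 213 and 189 CPM with auxin and 197 and 174 CPM without, so its groups overlapped (log2 fold change 0.11, SE 0.07). Lefty1 and Lefty2 are neighbouring, closely similar genes on chromosome 1 (180935022 to 180938400 and 180893108 to 180899103, mm10), so fragments that match both could blur the difference between them.

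The inhibitory Smads, which block signalling through receptor Smads, differed in the sign of their fold change, and only Smad7 was past the threshold for all genes given below. Smad6, which acts mainly on BMP Smads and carries the palindrome shown above (chr9:63953076-64022059), measured 7.0 and 7.19 CPM with auxin and 4.29 and 5.70 CPM without. Its auxin libraries were the higher ones, on few fragments (95 and 121 counts with auxin, 61 and 84 without; log2 fold change 0.51, SE 0.19). The value was 0.32 without the first replicate of the libraries without auxin and 0.72, then past the threshold, without the second. Smad7, which acts on both arms, measured 100 and 94.7 CPM with auxin and 122 and 135 CPM without. It was lower in both auxin libraries (log2 fold change -0.40, SE 0.07).

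The Id genes encode helix-loop-helix proteins that lack a DNA-binding region and hold back basic helix-loop-helix factors, and all are textbook BMP targets. Id1 (chr2:152736251-152737410) measured 38.1 and 47.3 CPM with auxin and 30.6 and 32.7 CPM without (log2 fold change 0.44, SE 0.11). Both auxin libraries were higher, the second by more, and without the second the log2 fold change was 0.27. Id2 (chr12:25093801-25096092) measured 27.4 and 28.4 CPM with auxin and 19.0 and 14.7 CPM without, 1.66-fold higher with auxin (log2 fold change 0.73, SE 0.12). Id3 (chr4:136143497-136145755) went the other way, with 34.9 and 45.6 CPM with auxin and 69.3 and 74.4 CPM without. Its level was 1.78-fold lower with auxin (log2 fold change -0.83, SE 0.11), and the highest auxin library stayed below the lowest of the others. The 3 Id genes therefore did not share a direction.

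**Figure D1:**
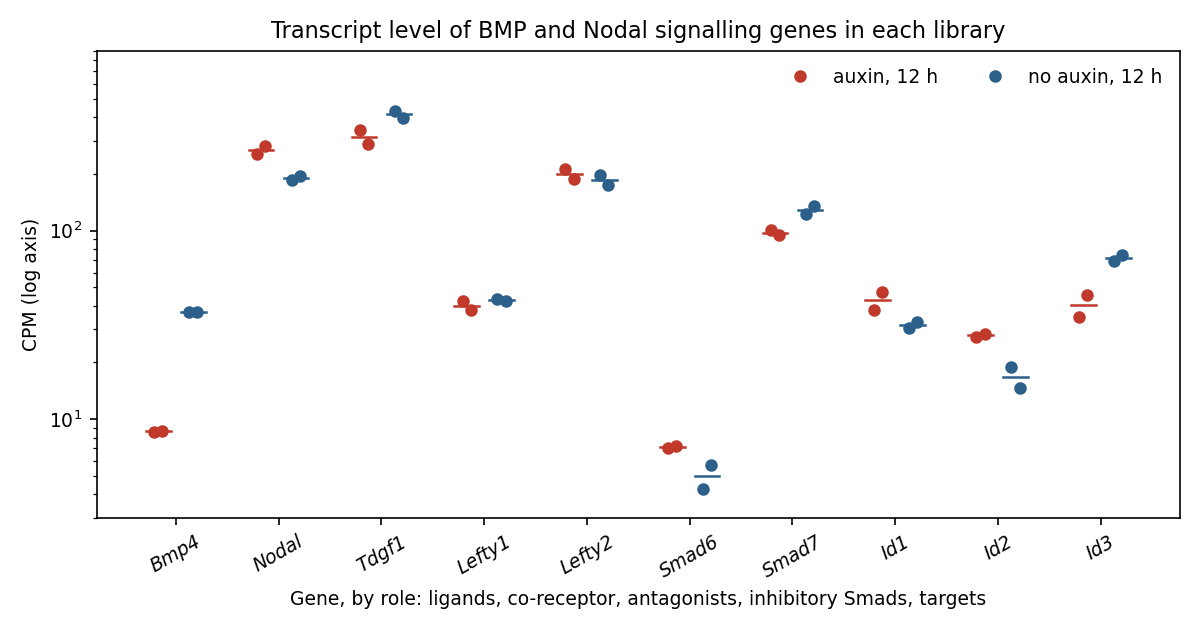
Transcript level (CPM, log axis) of the 10 genes in each library, with auxin (red, left) and without auxin (blue, right); points are libraries and bars are means of 2. Bmp4 shows the widest gap, at 8.55 and 8.67 CPM with auxin against 36.9 and 37.2 CPM without, and Lefty2 is the gene whose groups overlap.

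Across the 10 genes, 5 had a positive and 5 a negative log2 fold change, with a median of 0.00, against 0.01 for all genes tested. All 10 passed the filter on low counts. The groups did not overlap for 9 of the 10 (all but Lefty2), against 64.8% of all genes tested. With the edgeR threshold applied to all genes (adjusted p under 0.05), 3 members were past it on the higher side (Nodal, Id1 and Id2) and 4 on the lower side (Bmp4, Tdgf1, Smad7 and Id3). Of all 13522 genes, 27.5% were past it, 13.0% higher and 14.5% lower. Id1 was no longer past it without the second auxin replicate, whereas Lefty2 was past it there. Nothing is read from the members' counts, since the same comparison was in view when they were chosen.

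**Figure D2:**
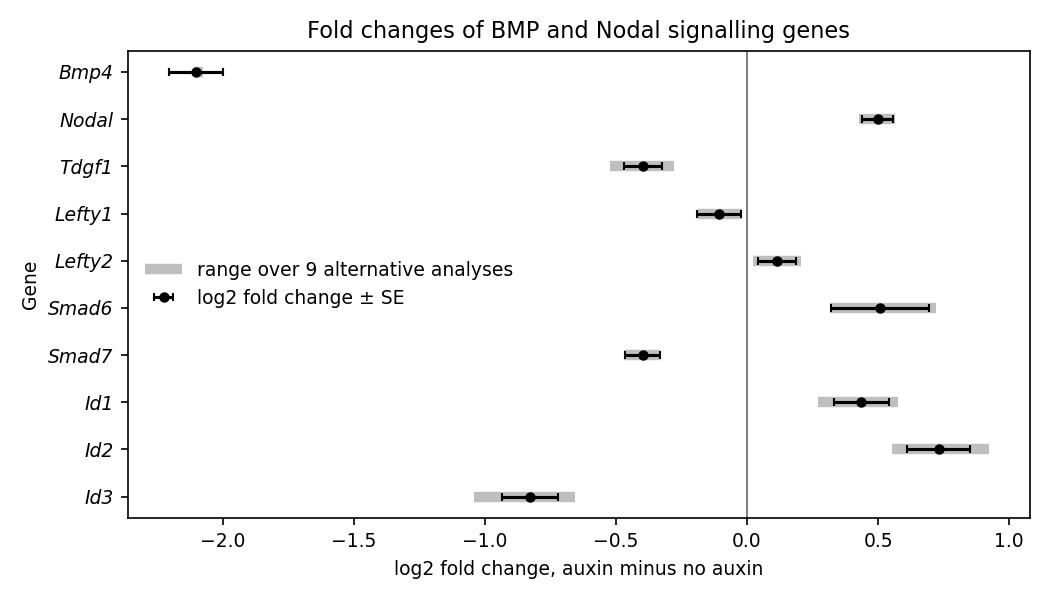
Log2 fold change of each of the 10 genes, auxin minus no auxin (points, with SE as whiskers), over the lowest to highest value in 9 alternative analyses (grey bars). Bmp4 lies at -2.10, Id3 at -0.83 and Id2 at 0.73, and no grey bar crosses 0.

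Levels can be ordered between genes only per length, here as RPKM (CPM per kb of annotated exon). With auxin the order was Tdgf1 (mean 163 RPKM), Nodal (128), Lefty2 (77.0), Id1 (36.8), Lefty1 (22.8), Id3 (22.5), Id2 (22.0), Smad7 (21.6), Bmp4 (3.87) and Smad6 (2.21). The RPKM values of Lefty1, Id3, Id2 and Smad7 could not be separated there, because their libraries ran from 19.5 to 25.5 RPKM and interleaved. Without auxin it was Tdgf1 (215 RPKM), Nodal (90.8), Lefty2 (71.0), Id3 (40.1), Smad7 (28.4), Id1 (27.3), Lefty1 (24.4), Bmp4 (16.6), Id2 (13.3) and Smad6 (1.56). Smad7 and Id1 overlapped in that group, and the other neighbours did not. The first 3 genes of the Nodal arm and the last, Smad6, kept their places, Id3 stood 6th with auxin and 4th without, and Id1 stood 4th with auxin and 6th without. Among the ligands, the mean level per length of Bmp4 was below that of Nodal in both groups.

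Other genes of the pathways were taken from 9 lists by role, written from general knowledge but with earlier results of these data known. Their counts beside the shares of all genes are therefore a description. Of 105 listed genes 104 were in the table and 79 passed the filter. Of these, 18 rose and 11 fell in auxin-treated cells and 50 passed no threshold (edgeR quasi-likelihood test, Benjamini-Hochberg adjustment over all genes, threshold 0.05), against 13.0% and 14.5% of all genes. The median log2 fold change of the 79 was 0.09, beside 0.01 for all genes. DESeq2 called 13 of them higher and 10 lower. Over all 13522 genes it called 945 higher and 1369 lower, fewer than the 1759 and 1964 of edgeR.

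Among other ligands of the Nodal, activin and TGF-beta branch, 3 of 4 tested fell. Inhbb, the activin B subunit, measured 8.18 and 8.08 CPM with auxin and 12.5 and 14.3 CPM without (log2 fold change -0.72, SE 0.14, edgeR adjusted p = 0.00306). Gdf3, a Nodal-related ligand, fell 1.29-fold (edgeR adjusted p = 0.00243). Tgfb1 fell 1.51-fold (edgeR adjusted p = 0.00816), a call lost without the first replicate of the libraries without auxin (adjusted p = 0.0546). Of 10 other tested genes with BMP or GDF names, a list that includes Bmp1, 3 rose (Bmp7, Gdf11 and Gdf15), 1 fell (Bmp8a) and 6 were not called. The list goes by name, and not every gene on it need encode a ligand of these receptors. Bmp7 had a log2 fold change of 0.38 and an edgeR adjusted p of 0.0351, Gdf11 one of 0.90 and 0.0388, Gdf15 one of 0.56 and 0.0275, and Bmp8a one of -0.53 and 0.0492. Each of these calls was lost with DESeq2, with adjusted p from 0.0544 for Gdf15 to 0.249 for Bmp8a. They were also lost on leaving out 1 library. That held for Gdf15 without replicate 1 of the no-auxin libraries (edgeR adjusted p = 0.173), and for Bmp7 without replicate 2 of either group (0.138 for auxin and 0.185 for no auxin). Gdf11 lost its call without auxin replicate 2 (edgeR adjusted p = 0.297) or either no-auxin replicate (0.163 and 0.0566), and Bmp8a without any 1 of the 4 libraries (0.0678 to 0.177).

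Genes that act on ligands outside the cell were called in both directions. Of 10 tested genes for ligand processing and co-receptors, 4 rose, 1 fell and 5 were not called, with a median log2 fold change of 0.52. Furin, a protease that cleaves the Nodal precursor, measured 49.8 and 60.2 CPM with auxin and 27.3 and 34.6 CPM without (log2 fold change 0.83, SE 0.12, edgeR adjusted p = 0.000526). Pcsk6, a protease with the same substrate, rose 1.59-fold to a mean of 214 CPM (edgeR adjusted p = 0.000198). The co-receptors Tgfbr3, which presents TGF-beta, and Rgma, which binds BMPs, rose 1.63-fold and 1.66-fold. Ltbp4, which tethers latent TGF-beta to the matrix, fell 1.38-fold (edgeR adjusted p = 0.000205). Of 8 tested secreted antagonists other than the Lefty genes, 2 fell and 6 were not called. Fst, which traps activin, measured 22.6 and 24.5 CPM with auxin and 43.6 and 42.6 CPM without (log2 fold change -0.87, SE 0.09, edgeR adjusted p = 5.20e-05). Fstl1 fell 1.36-fold.

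Of 10 receptor genes tested, 3 rose and 7 were not called. Over all genes tested 27.5% were called in either direction, so these counts are not read as a trait of receptors. The risers were Acvr1, a BMP type I receptor (1.52-fold, edgeR adjusted p = 0.00575), Tgfbr2 (1.85-fold, adjusted p = 0.00220) and Tgfbr1. Tgfbr1 had a log2 fold change of 0.23 (edgeR adjusted p = 0.0356), and its call was lost with DESeq2 and on leaving out any 1 of the 4 libraries (adjusted p from 0.0755 to 0.175). The main BMP receptors were not called, with log2 fold changes of -0.09 for Bmpr1a (SE 0.07) and 0.28 for Bmpr2 (SE 0.14). Nor were the receptors that Nodal uses, at -0.22 for Acvr1b, -0.03 for Acvr2a and -0.01 for Acvr2b. The low-level receptors Acvrl1 (0.22) and Amhr2 (0.24) were not called either. Bmpr2 was called without the first auxin replicate (edgeR adjusted p = 0.0318), and Acvr1b without the first replicate without auxin (adjusted p = 0.0161) and with the 1-read filter (0.0268).

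Smad1 to Smad5 were not called by the edgeR test used throughout or by DESeq2, although 2 of the 5 (Smad2 and Smad5) had an unadjusted edgeR p under 0.05. Log2 fold changes were 0.09 for Smad1 and 0.17 for Smad5 below BMP receptors, -0.20 for Smad2 and 0.19 for Smad3 below Nodal receptors, and 0.00 for Smad4. Smad2 had an edgeR adjusted p of 0.0546, or 0.0493 with RLE factors. Smad3 was spread widely, at 30.1 and 37.5 CPM with auxin and 24.4 and 35.2 CPM without. It was called without the second replicate without auxin (log2 fold change 0.47, edgeR adjusted p = 0.0117) and without the first auxin replicate (0.33, adjusted p = 0.0228). Of all 9 Smads and cofactors tested, 1 was called. This was Zfp423, a zinc finger protein that binds BMP-activated Smads at target genes. It fell 3.27-fold, to 14.7 and 14.6 CPM with auxin, against 48.7 and 46.9 CPM without (log2 fold change -1.71, SE 0.09, edgeR adjusted p = 5.35e-07). Of 11 intracellular inhibitors other than Smad6 and Smad7, the Smad corepressor Tgif1 fell 1.28-fold and 10 were not called.

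**Figure D3:**
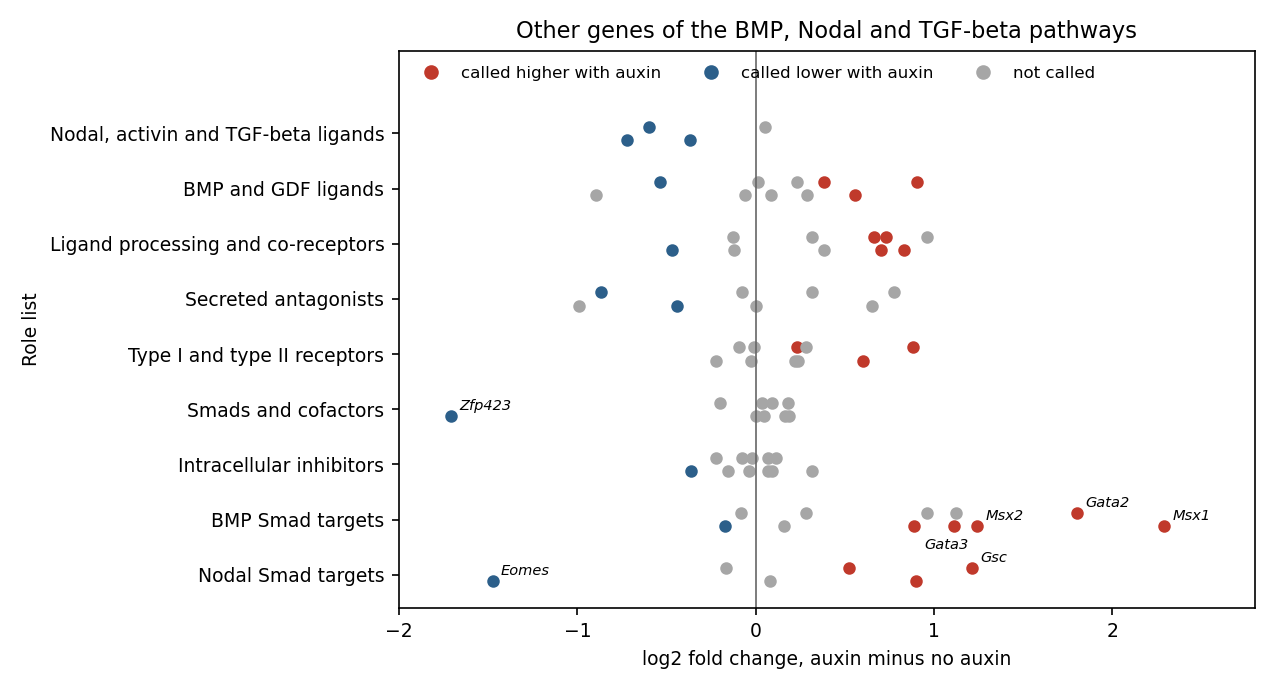
Log2 fold change, auxin minus no auxin, of the 79 other pathway genes tested, 1 point a gene, by role; red points were called higher, blue points lower and grey points were not called (edgeR, adjusted over all genes). Zfp423 lies at -1.71 and Eomes at -1.48 on the lower side, and Msx1 at 2.29 and Gata2 at 1.80 on the higher side.

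Among BMP targets other than Id1, Id2 and Id3, those that passed the test were mostly higher with auxin. Of 11 tested BMP targets, 5 rose, 1 fell and 5 were not called, beside 13.0% higher and 14.5% lower over all genes tested. As the list was written with earlier results known, these counts are a description. Msx1, a homeobox gene of the limb and neural crest, measured 7.30 and 8.26 CPM with auxin and 1.40 and 1.76 CPM without, a 4.90-fold rise. Gata2 measured 30.7 and 52.2 CPM with auxin and 10.9 and 13.1 CPM without (log2 fold change 1.80, SE 0.21, edgeR adjusted p = 0.000165). Msx2 rose 2.36-fold, Gata3 rose 2.16-fold, and Id4, the remaining Id gene, rose 1.85-fold (edgeR adjusted p = 0.00621), the direction of Id1 and Id2 and not of Id3. Tbx3, a further BMP target and a pluripotency gene, was the faller (log2 fold change -0.17), named after its value was seen. Gata3 is also a trophectoderm gene. The 6 trophectoderm markers summed to 98.1 and 116 CPM with auxin and 111 and 127 CPM without, with 2 called higher (Cdx2 and Gata3) and 1 lower (Eomes). The lower sum came from Eomes, at a mean of 20.5 CPM with auxin and 57.2 CPM without. Cdx2, Gata3, Krt7, Krt8 and Krt18 all had positive log2 fold changes. The part of these markers in the result was not tested.

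Of 6 tested Nodal targets, 3 rose, 1 fell and 2 were not called. Eomes, a T-box factor of mesendoderm and trophoblast, measured 19.3 and 21.7 CPM with auxin and 56.1 and 58.2 CPM without (log2 fold change -1.48, SE 0.09, edgeR adjusted p = 1.24e-06). Gsc, an organizer homeobox gene, rose 2.32-fold, at 3.24 and 3.80 CPM with auxin and 1.76 and 1.29 CPM without. T (brachyury) rose 1.44-fold (edgeR adjusted p = 0.0241), a call lost without the first auxin replicate (adjusted p = 0.163) and with DESeq2 (0.0985). The 5 mesendoderm markers summed to 38.4 and 38.7 CPM with auxin and 68.6 and 69.9 CPM without, a sum led by Eomes. Those of primitive endoderm summed to 24.6 and 27 CPM with auxin and 15.2 and 17.8 CPM without, and 2 of 6 were called higher. Whether other cell types had a part in these results was not tested.

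H3K27me3 at the members was read from the peak lists, a measure that played no part in choosing them. A gene was called marked where a peak came within 1 kb of its 5′ end, upstream or downstream. None of the 10 genes was marked by ChIP-seq, 1 was marked by CUT&RUN, and none by both. For all placed genes that passed the RNA filter the shares were 6.91%, 7.65% and 3.79%. The marked gene was Lefty1. Its CUT&RUN peak, chr1:180935791-180936914, was 1124 bp wide, began 769 bases inside the gene and had a fold enrichment of 3.51 and a −log10 q of 2.25 as the authors' peak caller gave them. No ChIP-seq peak lay over it. The nearest one began 6.13 kb from the Lefty1 5′ end.

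Beyond the promoters, 6 of the 10 genes had no peak of either assay within 10 kb of the gene. The share of all genes without such a peak was not counted, so this is not read as a trait of the 10. Bmp4 was the farthest from the mark, with its nearest CUT&RUN peak 203 kb and its nearest ChIP-seq peak 265 kb away. Nodal had its nearest peaks at 28.2 kb (CUT&RUN) and 28.0 kb (ChIP-seq). Id3 was the gene with the nearest ChIP-seq peak, 4.28 kb upstream, while the nearest CUT&RUN peak was 9.39 kb away. Smad6 held a 729 bp CUT&RUN peak inside the gene, 15.9 kb from its 5′ end. As 1 sample an assay was used, these positions have no replicate check, and no file used here gives the mark with auxin.

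**Figure D4:**
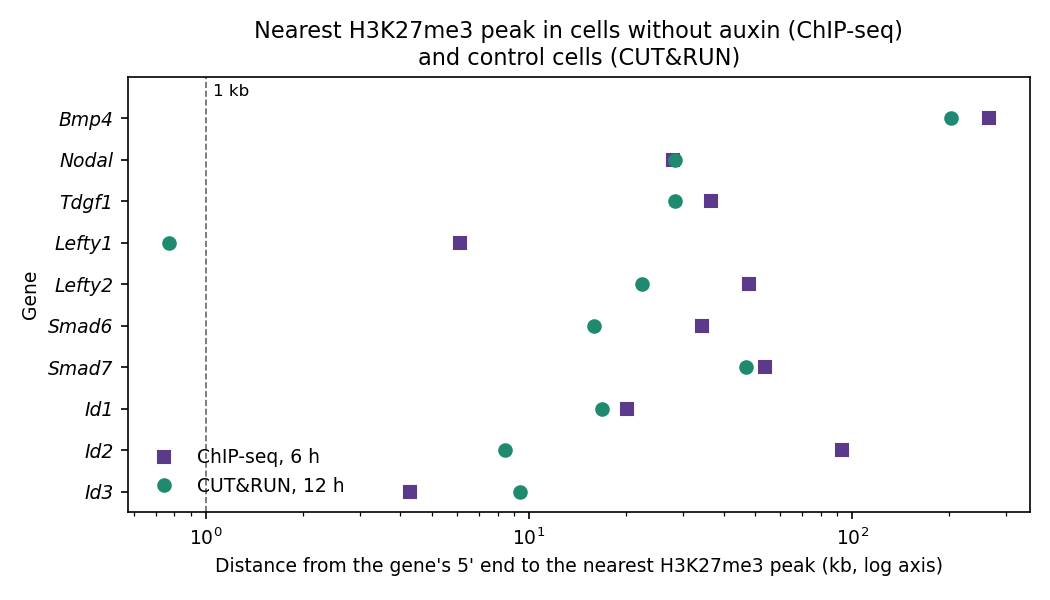
Distance (kb, log axis) from the 5′ end of each of the 10 genes to the nearest H3K27me3 peak in ChIP-seq (squares, no auxin, 6 h) and CUT&RUN (circles, control, 12 h); the dashed line is 1 kb. The CUT&RUN peak of Lefty1 at 0.77 kb is the only point inside the line, and Bmp4 is the farthest, at 203 kb and 265 kb.

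Of the other pathway genes, 13 of 104 (12.5%) were marked by both assays, beside 5.95% of all 32968 placed genes, and the difference was not tested. They included Furin, Gata2, Gata3, Dlx3, Dlx5 and Grem1. Of the 10 of these that passed the RNA filter, Furin, Gata2 and Gata3 rose and 7 were not called. Those 7 had few counts, from 6 (Nbl1) to 65 (Ltbp3) a library. The SE of their log2 fold changes ran from 0.35 (Acvrl1) to 0.53 (Dlx3), so depth limits both their calls and the median below. Of the 69 tested genes without marks in both assays, 15 rose, 11 fell and 43 were not called. The median log2 fold change was 0.90 for the 10 marked genes and 0.07 for the 69 others. Whether these shares or medians differ was not tested.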

How the data were processed

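RNA was measured in 4 libraries and H3K27me3 peaks in 2 samples. Per the file headers, the authors deposited raw fragment counts per gene name, made with featureCounts 1.6.3 (exons, reverse strand, mm10 annotation), beside exonic lengths. The submitters' processing notes name STAR 2.6.1d, Bowtie2 2.4.1 and MACS2 2.1.1. The deposited peak lists hold, for each broad peak, its score, its fold enrichment and both −log10 p and −log10 q. No source used here states the peak cutoff, and the lowest −log10 q was 1.02 (ChIP-seq) and 1.00 (CUT&RUN).

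Counts were fitted with edgeR (version 4.0.16, R 4.3.3; TMM factors, filterByExpr defaults, two-sided quasi-likelihood test, Benjamini-Hochberg over the 13522 genes kept, threshold 0.05), with no replicate block. SE was obtained by dividing the absolute log2 fold change by the root of the F statistic. The fit was tested on simulated data. Within a group, libraries varied beyond Poisson error (chi-square over its degrees of freedom 11.1 with auxin, 3.86 without). Alternatives were RLE and upper-quartile factors, a filter of 1 read, DESeq2 1.42.0, a replicate block and leaving out each library.

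The members and lists were chosen with earlier results of these data known. Named pathway genes are, per role list, the 5 called genes with the smallest adjusted p, and every tested Smad and receptor. The values of 1 gene that this rule names are not reported here.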

Additional observations from a re-analysis of the deposited data

How the results depend on the processing

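The log2 fold changes of all 10 genes kept their sign in all 9 alternatives (RLE factors, upper-quartile factors, the 1-read filter, DESeq2, the replicate block and each of the 4 libraries left out). Bmp4 ranged from -2.11 to -2.07, Id3 from -1.04 to -0.66, Nodal from 0.43 to 0.56 and Id2 from 0.55 to 0.92, whereas Lefty1 came as near 0 as -0.02 without the second auxin replicate and Lefty2 as near as 0.02. Among the other pathway genes, 18 were called higher and 11 lower. With the replicate number as a block the counts were 29 and 18. Over all 13522 genes tested, the block called 2972 higher and 3177 lower, against 1759 and 1964 without it, so calls rose over all genes too. The block also put 9 of the 10 genes past the threshold, against 7 without it, adding Smad6 and Lefty2, and among the receptors and Smads it called Acvr1b (edgeR adjusted p = 0.000243), Bmpr2 (0.0283), Smad2 (0.00270), Smad3 (0.0389) and Smad5 (0.0124). Smad6 was past the threshold with the 1-read filter too. Same-numbered libraries deviated together weakly (correlation 0.27 over genes), but no label says that the numbers pair the samples, and the cause of the difference was not tested. On leaving out 1 library the counts ranged from 15 to 22 higher and from 10 to 11 lower. The count of the 10 genes marked by H3K27me3 in both assays was 0, also with a window of 2.5 kb, and was 1 with CUT&RUN alone. It was also 0 with peaks of a −log10 q of at least 5 and with at least 500 covered bases. These 2 rules are stricter and could not raise a count of 0, so they are no check on it. Smad6, with 61 to 121 counts a library, is the member whose value depth limits most.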
